A study of Mus musculus with 2 samples.

Results

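The genes described here mark the segments and progenitors of the nephron, and their signals were examined in RNA from ureters of mouse embryos at E16.5 (E, embryonic day). The 32 genes were taken by name from the 29982 genes represented on the arrays, and all of them had at least 1 probe. Nephrons lie in the kidney and not in the ureter. Each forms from mesenchymal progenitors that express Six2 and Cited1, and each then divides into a glomerulus with its filtering podocytes, a proximal tubule that recovers solutes and proteins, a loop of Henle and a distal tubule. The collecting duct and the ureteric epithelium arise from a different source, the nephric duct.

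The study deleted Pparg, which encodes a nuclear receptor, from the ureteric epithelium and profiled ureters on 2 dual-colour expression arrays. Each array compared 1 pool of Pax2-cre/+; Pparg(fl/fl) ureters (Pparg-cKO) with 1 pool of Pparg(fl/?) control ureters, in which the state of the second allele is not given, and both were of the NMRI strain. Array 1 held RNA of female and array 2 of male embryos. The cre line works in the nephric duct and its derivatives, which include the lining of the ureter and the kidney's collecting ducts. Titles and protocols give E16.5, while the stage label of the Pparg-cKO channel reads E14.5 on both arrays. Each pool came from several embryos, and the spread between arrays therefore combines biological and technical differences. In RNA of pooled tissue, fewer cells of a type and less RNA per cell cannot be told apart.

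The dye labels of both arrays contradict the direction in which the study reads its ratios. For this reason the RNAs are named by dye. RNA A carried the red dye (AlexaFluor647) on array 1 and the green dye (AlexaFluor555) on array 2, and RNA B carried the other dye. RNA A is control by the dye labels. It is Pparg-cKO if the authors' signed fold changes are read in the direction that the study gives them. A gene brighter in RNA B was thus higher in Pparg-cKO ureters under the labels and lower in them under the study's reading, and no genotype was assigned from the values. Because dye and sex both switched between the arrays, they cannot be told apart either. The Pparg probe itself read 11295 (RNA A) and 7430 (RNA B) on array 1, against 12888 and 7872 on array 2, a log2 ratio of RNA A over RNA B of 0.66 ± 0.08 (SD, n = 2; limma adjusted p = 0.615). It does not settle the labels, since its place relative to the deleted exons was not analysed here. All ratios below are log2 of RNA A over RNA B, so that negative values mean brighter in RNA B.

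The tissue label was checked against defining markers. The smooth muscle gene Acta2 had signals from 39606 to 72555 across the 4 channels, the urothelial gene Upk3a from 30472 to 51988 and the ureteric mesenchyme gene Tbx18 from 3270 to 4020. Markers of kidney compartments were also above background. Foxd1, a transcription factor of the renal stroma, ranged from 4447 to 5795, and the collecting duct water channel Aqp2 from 51.8 to 89.9. Signals of different probes are not comparable in level, so each range describes only its own gene.

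Of the 32 nephron genes, 20 were well above background in both RNAs on both arrays. In 4 more, all encoding transporters of the proximal tubule, RNA B was above background on both arrays and RNA A on array 2 only. These 24 genes entered the test. Nphs1 and Kap were above background in some channels only and were not tested. The remaining 6 were above background in no channel. Detection also differed by dye. Green spots were well above background in 80.3% of cases on array 1 and 80.4% on array 2, red spots in 70.4% on both. RNA A was red on array 1, so the calls of the 4 transporters there cannot be told apart from the dye. RNA A of Slc34a1 counted as above background at 4.20 (green, array 2) but not at 6.20 (red, array 1). The plot of signals shows how the genes divided along the nephron.

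**Figure D1:**
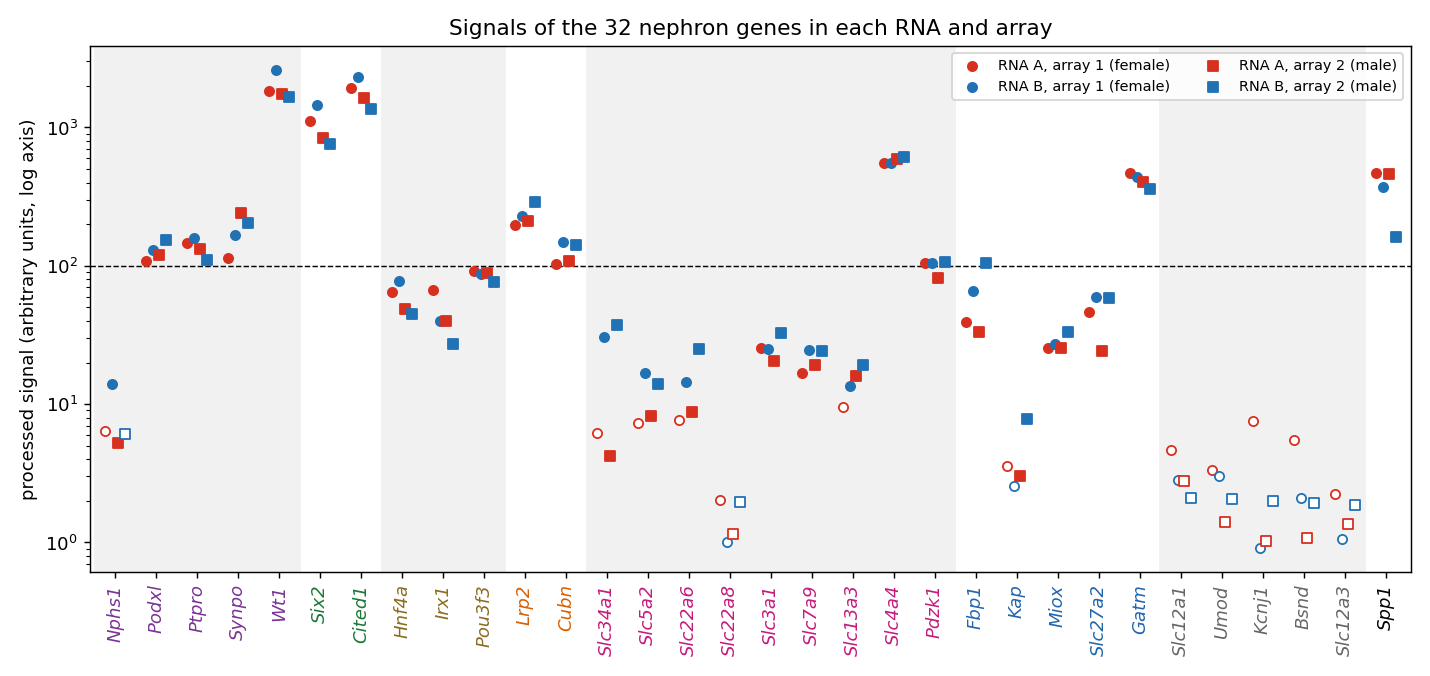
Processed signal of each of the 32 genes (log axis, arbitrary units) in RNA A (red symbols) and RNA B (blue symbols) on array 1 (circles) and array 2 (squares), ordered from podocyte to distal tubule, with gene names coloured by role. Open symbols are values not well above background and the dashed line is a signal of 100. The 5 loop and distal tubule genes are open throughout, while Six2, Cited1 and Wt1 lie between 765 and 2611.

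RNA B was the brighter RNA on both arrays for 8 of 10 proximal tubule members measured in every channel, against 17.1% of all such genes. The largest mean differences fell on transporters and enzymes of that segment with signals mostly below 100. Spp1, listed outside that segment, went the other way with a mean ratio of 0.92 at signals from 161 to 465. By their brightest probes, the tested podocyte and progenitor genes stayed within 1.5-fold and, except for Podxl, changed sign between the arrays. The 5 members of the loop and distal tubule were not detectable. With the study's criteria read as a 1.5-fold or larger ratio that points the same way on each array, with the brighter RNA at 100 or more, 0 of the 32 genes passed in either direction. Across all genes, 0.23% (69 of 29982) passed as brighter in RNA B and 0.157% (47) as brighter in RNA A. limma, a linear model with a variance shared across genes, called 1 of the 24 tested members brighter in RNA B at an adjusted p under 0.05, Slc34a1, against 0.187% of the 21429 genes tested. It called 0 members brighter in RNA A, against 0.126%. At an unadjusted p under 0.05, 6 members were brighter in RNA B, where 2.1% of all tested genes were, and 2 were brighter in RNA A, where 1.68% were. The 6 were Slc34a1, Slc22a6, Slc5a2, Fbp1, Slc27a2 and Cubn, every one a proximal tubule gene, and the 2 were Irx1 and Spp1. Of these, Slc34a1, Slc22a6 and Slc5a2 are among the 4 genes not above background in RNA A on array 1, so that they entered the test through RNA B there and their direction on that array is no support.

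The direction of the ratios was then counted by segment. Among the 10 proximal tubule members measured in every channel, RNA B was the brighter on each array for 8 (Lrp2, Cubn, Slc7a9, Slc4a4, Pdzk1, Fbp1, Miox and Slc27a2). For 3 of these 8 (Slc4a4, Pdzk1 and Miox) the ratio on at least 1 array lay within the SD over spots, so that only its sign is counted there. The share of 17.1% was taken over 20615 genes measured in every channel. Gatm was brighter in RNA A on both arrays and Slc3a1 was brighter in the red channel on both. Among the 6 podocyte and progenitor members measured in every channel, 5 were brighter in the green channel on both arrays (Ptpro, Synpo, Wt1, Six2 and Cited1), which means in RNA B on array 1 and in RNA A on array 2, a pattern of 32.6% of all such genes. Podxl was brighter in RNA B on both. Taking the 20 members together, 9 followed RNA B, 4 RNA A (21.3% of all genes), 6 the green channel and 1 the red channel (29%). Their median ratio was -0.17 beside 0.01 over all genes measured in every channel. The genes were listed with earlier results of these arrays known, so these shares describe the list and are no test of it.

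**Figure D2:**
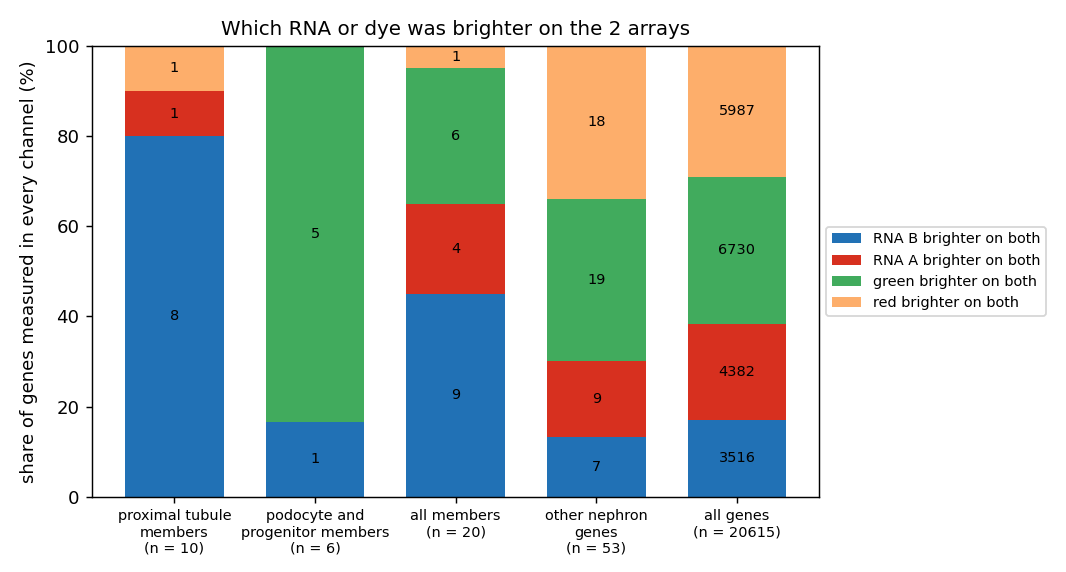
Share of genes measured in every channel (y axis, %) that were brighter in RNA B on each array, in RNA A on both, in the green channel on both or in the red channel on both, for proximal tubule members, podocyte and progenitor members, all members, other nephron genes and all genes, with gene counts in the bars and totals in the axis labels. RNA B was brighter for 8 of 10 proximal tubule members and for 7 of 53 other nephron genes.

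Ratios of the tested genes are plotted by array. The largest departures from 0 were those of Slc34a1. By its brightest probe, each tested podocyte and progenitor gene stayed within 1.5-fold on both arrays, while a second Six2 probe gave -0.61 on array 1. The SD over the 4 spots of a probe is the spread within an array, which holds no dye or hybridisation error. For the 20 members measured in every channel its median was 0.09 on either array and its largest value 0.24.

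**Figure D3:**
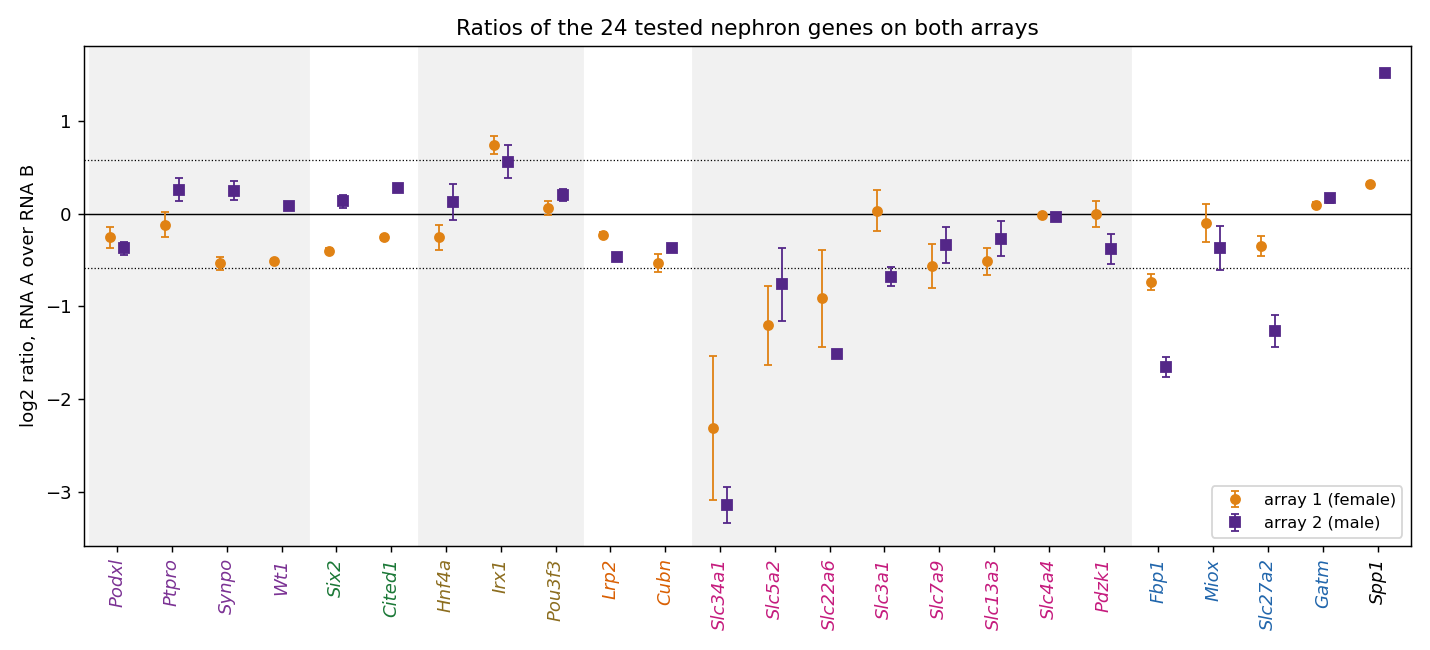
log2 ratio of RNA A over RNA B (y axis) of the 24 tested genes on array 1 (circles) and array 2 (squares), with bars giving the SD over the kept spots of the probe and dotted lines marking 1.5-fold. Slc34a1 lies at -2.31 and -3.15, and no gene outside the proximal tubule lies beyond 1.5-fold on both arrays.

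The proximal tubule brush border takes up filtered protein through the giant receptor megalin, encoded by Lrp2, and its partner cubilin, encoded by Cubn. Lrp2 read 196 (RNA A) and 230 (RNA B) on array 1, against 211 and 291 on array 2. Cubn read 103 and 150 on array 1, and 109 and 141 on array 2. RNA B was the brighter RNA for both receptors on both arrays. The ratios were -0.35 ± 0.17 for Lrp2 and -0.45 ± 0.11 for Cubn (SD, n = 2), and neither passed limma (adjusted p = 1.00 for both). A second Cubn probe read -0.18 on array 1 and -0.88 on array 2, in the same direction. For Lrp2 the other 2 probes were not well above background. Amn, the third component of cubilin's receptor complex, read -0.13 on array 1 and -0.90 on array 2, but it was picked with its values in view. On array 1 its ratio was within its SD over spots (0.33). Of the 18 other proximal tubule genes measured in every channel, Amn among them, 3 followed RNA B, 2 RNA A, 6 the green channel and 7 the red channel.

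Transporters of the proximal tubule showed the largest mean ratios, at very low signals. Slc34a1 encodes the sodium-phosphate cotransporter of the proximal tubule. Its probe (mm9 chr13:55515201-55515259) read 6.20 (RNA A) and 30.8 (RNA B) on array 1, against 4.20 and 37.2 on array 2. RNA A was not well above background on array 1. On array 2, where both RNAs were measured, RNA B was 8.85-fold brighter. The mean ratio of -2.73 ± 0.59 (SD, n = 2; limma adjusted p = 0.0122) rests also on array 1, where the gene entered through RNA B. That call was lost, and the mean ratio was smaller, after normexp background correction with loess (-1.07, adjusted p = 0.287) and with the authors' deposited table (-1.73, adjusted p = 0.865). Centring on the median kept the ratio at -2.74 but not the call (adjusted p = 0.0639), and the mean over both probes gave -1.47 with the call kept (adjusted p = 0.0168). It was also lost without the filter on dim probes and with the paired channels of an array taken as separate values. A second Slc34a1 probe (mm9 chr13:55514826-55514885) did not show it. This probe read 11.6 (RNA A) and 13.2 (RNA B) on array 1, against 9.84 and 11.6 on array 2, for a ratio of -0.19 and -0.24. Both probes had signals far below the study's threshold of 100.

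Slc22a6 encodes the organic anion transporter OAT1, which takes organic anions from the blood into the tubule cell. It read 7.68 (RNA A) and 14.4 (RNA B) on array 1, against 8.81 and 25.1 on array 2, with a ratio of -1.21 ± 0.42 (SD, n = 2; limma adjusted p = 0.0985). Slc5a2, the sodium-glucose cotransporter SGLT2 of the early proximal tubule, read 7.27 and 16.8 on array 1, and 8.18 and 13.9 on array 2, with a ratio of -0.98 ± 0.31 (SD, n = 2; limma adjusted p = 0.189). Neither gene passed the test, and for both RNA A was not well above background on array 1. Their ratios were -0.49 and -0.35 under normexp with loess. Slc13a3, which encodes a dicarboxylate transporter, behaved alike in detection but differed less, at 9.47 and 13.5 on array 1 and 15.9 and 19.2 on array 2. Without a signal threshold, 4 members had RNA B at least 1.5-fold brighter on each array (Slc34a1, Slc22a6, Slc5a2 and Fbp1), where 0.691% of tested genes were. Only Fbp1 among these was measured in every channel.

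**Figure D4:**
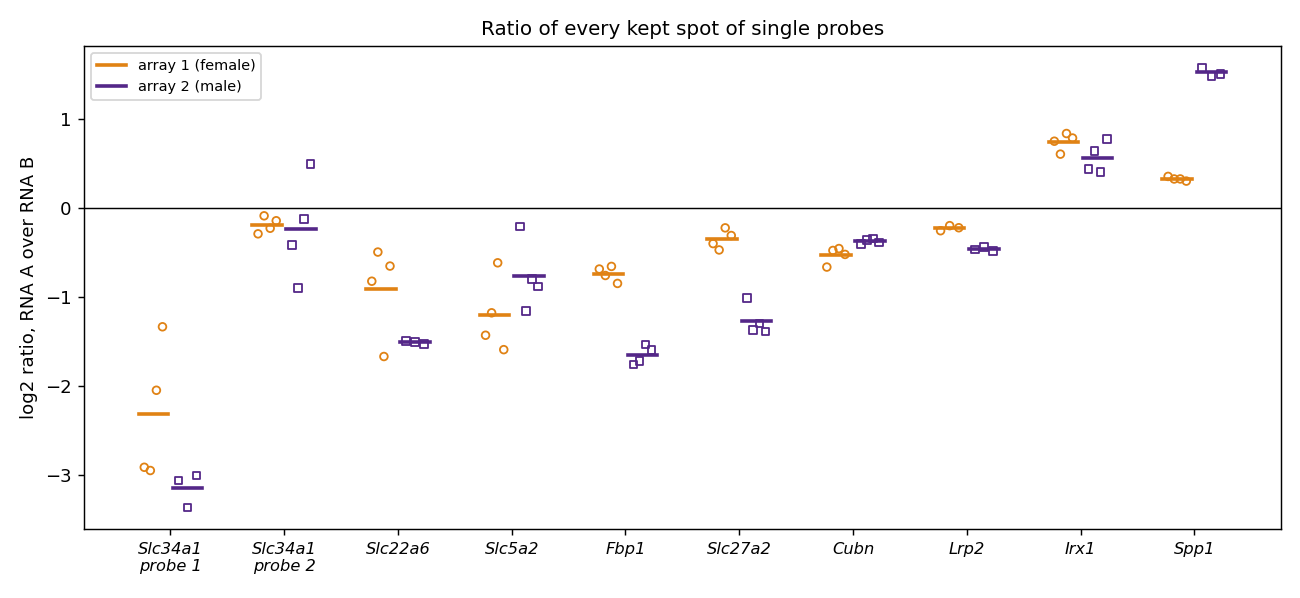
log2 ratio of RNA A over RNA B (y axis) of every kept spot of the probes of 9 genes, with both Slc34a1 probes shown, on array 1 (circles) and array 2 (squares). Horizontal bars are means over spots. The first Slc34a1 probe spans -2.95 to -1.34 on array 1, while the second lies between -0.90 and 0.49 over both arrays.

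Genes of the proximal tubule are known targets of the HNF1 and HNF4 transcription factors, and the promoters of the members were therefore searched on both strands for the HNF1 core GTTAAT, for 2 such cores in palindrome with 1 base between them, for the nuclear receptor core AGGTCA and for its direct repeat with 1 base between. RefSeq promoters (GRCm38.p6) were given for 26 of the 32 members, and the 250 bases before the start were read. GTTAAT occurred in 7 of these 26 genes (26.9%), namely Slc34a1, Slc22a6, Slc22a8, Miox, Hnf4a, Umod and Spp1, and in 7.49% of all 27025 genes with a promoter. AGGTCA occurred in 7 of 26 (26.9%) and in 15.8% of all genes. The palindrome and the direct repeat, which contain these cores, occurred in 0 of 26. The promoters of the 2 transporters with the largest mean ratios are printed with the HNF1 core in capitals, and were chosen after the values were seen.
Slc34a1 (chr13:55399398-55399647, + strand): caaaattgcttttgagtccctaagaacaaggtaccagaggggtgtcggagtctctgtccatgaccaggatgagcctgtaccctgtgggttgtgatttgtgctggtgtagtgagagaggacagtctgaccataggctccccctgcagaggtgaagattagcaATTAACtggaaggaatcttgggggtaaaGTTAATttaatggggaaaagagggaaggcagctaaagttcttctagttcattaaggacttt
Slc22a6 (chr19:8617746-8617995, + strand): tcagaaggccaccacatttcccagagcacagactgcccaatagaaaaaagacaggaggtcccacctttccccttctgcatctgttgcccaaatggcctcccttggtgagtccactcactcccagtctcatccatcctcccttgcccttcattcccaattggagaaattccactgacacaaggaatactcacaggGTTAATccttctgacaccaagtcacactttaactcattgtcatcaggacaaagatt
The Slc34a1 promoter holds the core in both orientations, beginning 89 and 61 bases before the start, and that of Slc22a6 holds it once, 56 bases before the start. The neighbouring gene Slc22a8 also holds 1, yet its probe was above background in no channel. A match in these letters is not evidence of binding. Hnf4a itself read 64.9 (RNA A) and 77.5 (RNA B) on array 1, against 48.7 and 44.8 on array 2.

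By their brightest probes, the other tested transporters had ratios between -0.68 and 0.03. Slc4a4, the sodium bicarbonate cotransporter of the basolateral membrane, read 550 (RNA A) and 557 (RNA B) on array 1, against 592 and 607 on array 2. At -0.03 ± 0.01 (SD, n = 2) its ratio was within the SD over spots on each array (0.02 and 0.04), while a second probe read 0.05 and -0.03 and the third 0.55 and -0.53, of opposite sign on the 2 arrays. Pdzk1, a scaffold protein that holds brush border transporters, read 104.8 and 105.0 on array 1, and 81.8 and 106 on array 2. A second Pdzk1 probe gave -0.19 and -0.66, in the direction of RNA B on both arrays. Slc3a1 and Slc7a9 encode the 2 chains of the cystine transporter. Slc7a9 was brighter in RNA B on both arrays (-0.56 and -0.34), whereas Slc3a1 did so on array 2 only (0.03 and -0.68). Slc22a8, the organic anion transporter OAT3, stayed between 1.02 and 2.04 in all 4 channels, none of them above background.

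Among genes of proximal tubule metabolism, Fbp1 and Slc27a2 differed most. Fbp1, which encodes the fructose bisphosphatase of gluconeogenesis (mm9 chr13:62966175-62966234), read 39.4 (RNA A) and 65.7 (RNA B) on array 1, against 33.4 and 105 on array 2. RNA B was 1.67-fold brighter on array 1 and 3.15-fold on array 2. The ratio of -1.20 ± 0.65 (SD, n = 2) did not pass limma (adjusted p = 0.173), and the array 1 signal of 65.7 kept Fbp1 from the study's criteria. Slc27a2, a fatty acid transport protein and acyl-CoA synthetase, read 46.5 and 59.4 on array 1, and 24.1 and 58.1 on array 2. Its ratio of -0.81 ± 0.65 (SD, n = 2; limma adjusted p = 0.657) came mainly from array 2, at -1.27 against -0.35. Miox, which encodes the inositol-degrading enzyme myo-inositol oxygenase, read 25.4 and 27.2 on array 1, and 25.6 and 33.1 on array 2. Gatm, the first enzyme of creatine synthesis, went slightly the other way at 0.10 and 0.16, with signals from 360 to 468. Kap, the kidney androgen-regulated protein, was above background on array 2 (male) only, at 3.05 in RNA A and 7.79 in RNA B.

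The tested podocyte genes had ratios between -0.53 and 0.26. The cells that gave the signal of Wt1, a transcription factor of podocytes and their progenitors, were not examined. Wt1 read 1834 (RNA A) and 2611 (RNA B) on array 1, against 1751 and 1652 on array 2. Array 1 thus gave -0.51 and array 2 0.08, with spot SDs of 0.02 and 0.03. Synpo, an actin-binding protein of the podocyte foot process, behaved alike at -0.53 and 0.25, although a second probe read 0.19 and 0.03. Ptpro, a receptor phosphatase of the podocyte, gave -0.12 and 0.26. Podxl, the sialoprotein that coats podocytes and also lines vessels, was the podocyte member brighter in RNA B on both arrays, at 108 and 129 on array 1 and 119 and 154 on array 2. Nphs1, which encodes the slit diaphragm protein nephrin, was above background in RNA B on array 1 (14.1) and in RNA A on array 2 (5.27). Both were the green channel, and the ratio of Nphs1 was not tested. No podocyte member passed either criterion.

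Both markers of nephron progenitors were well measured. Six2, the transcription factor that keeps progenitors undifferentiated, read 1107 (RNA A) and 1461 (RNA B) on array 1, against 840 and 765 on array 2. Cited1, a transcriptional cofactor of the same cells, read 1928 and 2302 on array 1, and 1647 and 1358 on array 2. For both genes the green channel was the brighter on each array. The ratio of Six2 was -0.40 on array 1 and 0.13 on array 2, and a second Six2 probe gave -0.61 and 0.24. That of Cited1 was -0.26 and 0.28. Averaged over arrays they were -0.13 ± 0.38 and 0.01 ± 0.38 (SD, n = 2), smaller than the spread between arrays, and the mean of Cited1 changed sign under normexp with loess and under centring.

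**Figure D5:**
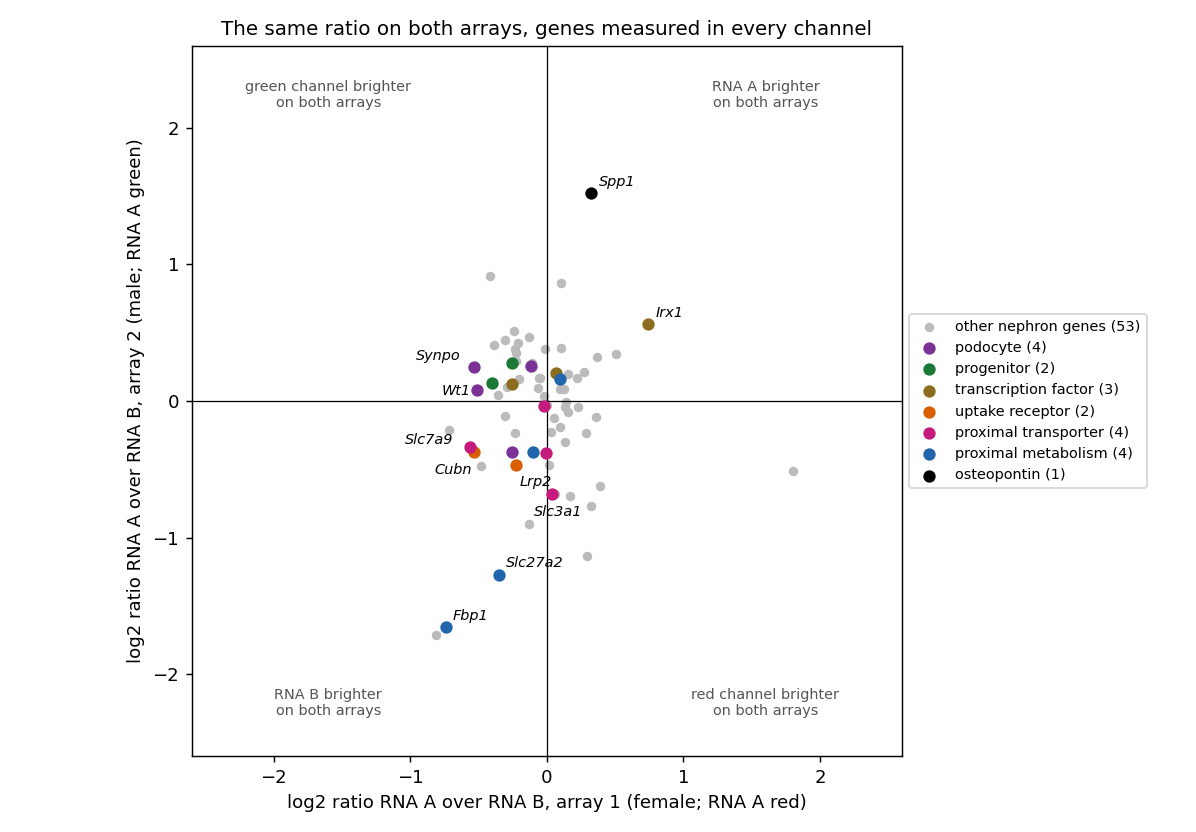
log2 ratio of RNA A over RNA B on array 1 (x axis) against array 2 (y axis) for the 20 members measured in every channel, coloured by role, and for 53 other nephron genes (grey). Fbp1 and Slc27a2 lie in the corner where RNA B was brighter on both arrays, Spp1 and Irx1 in the opposite corner, and Wt1, Synpo, Six2 and Cited1 in the corner of the green channel.

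Of the transcription factors of nephron segments, Irx1 differed most. Irx1, an Iroquois factor of the intermediate segments of the developing nephron, read 66.6 (RNA A) and 39.8 (RNA B) on array 1, against 40.1 and 27.2 on array 2. RNA A was the brighter RNA on both arrays, by 1.67-fold and 1.48-fold, although its array 2 value was almost that of RNA B on array 1. The ratio of 0.65 ± 0.13 (SD, n = 2) did not pass limma (adjusted p = 0.633). Pou3f3, a POU factor of the loop and distal tubule, gave 0.07 and 0.20, and Hnf4a, the nuclear receptor of the proximal tubule, -0.25 and 0.12.

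The loop of Henle and the distal tubule were represented by 5 members. They were Slc12a1 (the sodium-potassium-chloride cotransporter of the thick ascending limb), Umod (uromodulin), Kcnj1 (the potassium channel ROMK), Bsnd (the chloride channel subunit barttin) and Slc12a3 (the thiazide-sensitive cotransporter). Their signals lay between 0.92 and 7.59 over all channels, and 0 of the 5 were above background in any. No ratio is given for them. The transcripts were not detectable with these probes, which does not show that they were absent.

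Spp1, which encodes the secreted phosphoprotein osteopontin of tubule and other epithelia, was the tested member with the highest mean ratio. It read 465 (RNA A) and 371 (RNA B) on array 1, against 463 and 161 on array 2 (mm9 chr5:104868502-104868561). RNA A was above RNA B on each array and held to nearly the same signal on both. The RNA B signal differed between the arrays. The arrays were not scaled to each other, and dye and sex switched between them, so the difference cannot be assigned to either RNA. The ratios were 0.33 and 1.52, or 1.25-fold and 2.87-fold, with spot SDs of 0.02 and 0.05. The mean of 0.92 ± 0.85 (SD, n = 2) did not pass limma (adjusted p = 0.641), and the ratio on array 1 kept it from the study's criteria.

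Beyond the members, 69 further genes of the nephron were listed from general knowledge of the segments, and 58 of them were tested. Of the 69, 1 passed the 1.5-fold criteria as brighter in RNA B and 0 as brighter in RNA A. limma called 0 (5 brighter in RNA B and 0 in RNA A at an unadjusted p under 0.05). Of the 53 other nephron genes measured in every channel, 7 followed RNA B, 9 RNA A, 19 the green channel and 18 the red channel, with a median ratio of 0.03. For the 18 other proximal tubule genes among them the counts were 3, 2, 6 and 7. The difference from the 8 of 10 proximal tubule members was not tested.

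Markers of other cell types also differed between the RNAs, and their part in the results was not tested. In the urothelial list 6 of 10 genes had RNA B brighter on each array, and the uroplakin genes Upk1a, Upk3a and Upk3b passed the 1.5-fold criteria. The summed signal of that list was 64390 (RNA A) and 102219 (RNA B) on array 1, against 68981 and 103595 on array 2, of which Upk3a alone held 30472 to 51988. In the ureter wall list 5 of 6 genes had RNA B brighter on each array, with summed signals of 76296 and 93622 on array 1, and 69932 and 122109 on array 2, most of it Acta2. These sums follow the brightest probe and not the whole list. The renal stroma list, whose 5 genes were all measured, had 0 genes that followed either RNA on both arrays. Its summed signal was 9174 (RNA A) and 11071 (RNA B) on array 1, against 11416 and 10026 on array 2. For Foxd1, Fibin and Ntn1, as for Six2, Cited1 and Wt1, RNA B was higher on array 1 and RNA A on array 2. This was the green channel on both arrays, a pattern of 32.6% of all genes measured in every channel. The other 2 stroma genes (Ren1 and Akr1b7) ran the opposite way, as did 29% of all such genes. In the collecting duct list, 2 of 9 genes measured in every channel followed RNA B and 3 followed RNA A. Fxyd4, a regulator of the sodium pump in the collecting duct, passed the 1.5-fold criteria as brighter in RNA A, at 691 and 406 on array 1, and 684 and 233 on array 2. Like Spp1, it had nearly the same RNA A signal on both arrays and a dimmer RNA B signal on array 2. The same limits of scaling, dye and sex apply to it.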

How the data were processed

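RNA of pooled ureters was hybridised to 2 arrays on 1 slide, read in 1 scan. The deposited processed intensities came, per the submitters' notes and file headers, from Feature Extraction 10.7.3.1, which subtracted background, set surrogate values for dim spots (green 7.98% and red 15.2% on array 1, 8.22% and 15.1% on array 2) and normalised the dyes by a linear fit and then LOWESS. The deposited mean and background intensities fed an alternative. The authors' log10 ratio served as a dye check and matched the processed signals to within 0.001 in 88.9% of spots. The authors' table of signed fold changes correlated with RNA A over RNA B (r = 0.997 over 18716 and 18969 probes on arrays 1 and 2, a description) and was used as an alternative.

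Control and flagged spots were left out, the log2 signals of the 4 spots per probe were averaged, and a gene took its brightest probe. Names came from RefSeq (GRCm38.p6) for 28328 of 39429 probes and from the files for 11101. Positions are those of the files (mm9), and exon or untranslated positions were not analysed here. A probe counted as well above background with at least 0.5 of its kept spots so marked. limma 3.58.1 in R 4.3.3 was fitted to both log2 ratios of 21429 genes that had, on each array, an RNA above background. p-values were adjusted over all of them (Benjamini-Hochberg). The fit had 1 residual degree of freedom. An exact sign-flip test over 2 arrays cannot go below p = 0.5. Scripts were checked on simulated data. The number of arrays limits the precision.

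Named are all members, Pparg, genes of the other lists past the 1.5-fold criteria or called by limma, and up to 4 markers each of ureter, collecting duct and renal stroma. Some named items are not reported here. Members and lists were chosen with earlier results of these data known. Plots were drawn with matplotlib 3.10.9.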

Additional observations from a re-analysis of the deposited data

Results flagged for a closer look

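For 7 members measured in every channel, the array of female embryos and the array of male embryos gave ratios of opposite sign. This difference was not tested, and dye and sex cannot be told apart. Array 1 minus array 2, on the log2 scale, was -0.78 for Synpo, -0.59 for Wt1, -0.54 for Six2, -0.53 for Cited1, -0.38 for Ptpro and -0.38 for Hnf4a. In these 6 genes, RNA B was brighter in female and RNA A in male pools, and the green channel was the brighter on both arrays. For Slc3a1 the difference was 0.71, with the red channel brighter on both. Opposite signs were common among all genes, 32.6% being brighter in the green and 29% in the red channel on both arrays.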

How the results depend on the processing

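The 0 members past the 1.5-fold criteria in either direction stayed at 0 under normexp (offset 50) with loess, under centring, loess alone, the authors' table, the mean over probes, a 2-fold ratio, a signal of 200 and a signal of 100 in both RNAs. Without a signal threshold the count brighter in RNA B was 4, and a mean ratio of 1.5-fold put 1 (Spp1) past the criteria for RNA A. Leaving out 1 array gave 0 to 1 brighter in RNA B (Fbp1 without array 1) and 0 to 1 in RNA A (Spp1 without array 1). The limma call of Slc34a1 (1 member) remained under loess on the processed signals, the mean over probes and an intensity trend. It became 0 members under normexp with loess, centring, the authors' table, no filter on dim probes and no replicate block, which treats the paired channels of an array as separate values. The adjusted p of Slc34a1 ranged from 0.0122 to 1.00 over the alternatives, and the cause was not tested. Over all genes, limma called 40 brighter in RNA B and 27 in RNA A, 20 and 8 under loess on the processed signals, 0 and 1 under normexp with loess or centring, 56 and 39 with the mean over probes, and 0 and 0 with the authors' table or without the filter. limma could not be fitted with 1 array, which leaves no residual degree of freedom. The median ratio of the 24 tested members was -0.22, -0.16 under normexp with loess, -0.27 with the mean over probes, and -0.30 to -0.26 leaving out 1 array. The mean of Cited1 reversed from 0.01 to -0.0035 under normexp with loess and -0.0025 under centring. The 1 other nephron gene past the criteria became 0 with a signal of 100 in both RNAs or a 2-fold ratio and 2 without a signal threshold (1 of them Ggt1), and 1 to 2 leaving out 1 array (2 without array 2). Of the 24 tested members, 23 kept under 4 scalings the RNA or dye that was brighter on each array, and Slc3a1 did not. Low signals limit Slc34a1, Slc22a6, Slc5a2 and Slc13a3, whose RNA A was near background.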

Other observations

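These genes were singled out after their values were seen, and no explanation was tested. On array 1 (female), 2 mesothelial genes stood out in RNA B. Lrrn4 and Bnc1 read 43.6 and 55.7 in RNA B on array 1, where RNA A of both (6.20 and 9.60) was not well above background, and neither was tested. On array 2 their signals lay between 3.41 and 8.84. The mesothelial gene Msln was bright on both arrays and gave -0.64 on array 1 and 0.10 on array 2. Among the members, Nphs1 had its highest signal in the same RNA and array, at 14.1. This was not particular to it, since Wt1, Six2, Cited1 and other members were also highest there. RNA B was the green channel on array 1.

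On array 2 (male), RNA B was brighter for several genes of proximal tubule and of adrenal cortex. Slc17a1, a phosphate and organic anion transporter of the proximal tubule, read 3.78 in RNA A and 21.4 in RNA B there, and 4.44 and 6.64 on array 1. Ggt1, the gamma-glutamyltransferase of the brush border, read 3.70 and 6.75 on array 1, and 3.31 and 9.40 on array 2. For both Slc17a1 and Ggt1, RNA A was not well above background on either array. Cyp11b1, the adrenal enzyme that makes corticosterone, read 17.2 and 20.6 on array 1, and 8.40 and 35.2 on array 2. Of the 4 adrenal genes, 1 was brighter in RNA B on both arrays and 3 were brighter in the red channel on both, with summed signals of 141 (RNA A) and 124 (RNA B) on array 1, against 106 and 175 on array 2.

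The macrophage list had 5 of 5 genes brighter in RNA A on both arrays, where 21.3% of all genes measured in every channel were, with 0 past the 1.5-fold criteria and 0 called by limma (0 at an unadjusted p under 0.05). Of 5 endothelial genes, 0 followed 1 RNA on both arrays, and of 6 red blood cell genes 2 followed RNA B and 1 RNA A.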
